A study of Mus musculus with 30 samples.

Results

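The genes described here are 34 mouse orthologs of genes that carry Alzheimer's disease (AD) risk variants or familial AD mutations, other than *Bin1* itself. They came from a list of gene names with no threshold on an expression value, though earlier results of these data were known when it was drawn up, and all 34 were found among the 47643 genes of the table. All 34 also passed the filter for testing, a mean of at least 0.1 fragments per kilobase of transcript relative to the mapped total of the library (FPKM), and 31 of them were above 0 in every library.

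Much of the inherited risk for late-onset AD lies near genes that are active in microglia, the resident macrophages of the brain. The products of these genes meet in a few processes. Surface receptors of the sialic acid binding and immunoglobulin-like families, with their phosphatases, phospholipases and adaptors, set how strongly a microglial cell reacts. Endocytic adaptors and sorting proteins, among which *Bin1* is counted, carry cargo between the plasma membrane, endosomes and lysosomes, lipid transporters load cholesterol and phospholipid onto lipoproteins, and sheddases and γ-secretase cut the amyloid precursor protein.

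The libraries came from microglia of 3 month-old mice, sorted by the study as CD11b+ CD45med cells, with 1 mouse number in each library name. WT mice (5 male, 4 female) were given by the study as *Bin1* wt/flox without Cre, Het mice (6 male, 5 female) as *Bin1* wt/flox::*Cx3Cr1-Cre*+ and Homo mice (5 male, 5 female) as *Bin1* flox/flox::*Cx3Cr1-Cre*+. By that account every mouse carried a floxed allele, the Cre is a knock-in at *Cx3cr1* that acts in microglia and in other cells of the myeloid lineage, and the Cre allele and loss of the first *Bin1* copy came together. A deposited growth protocol speaks of microglia in culture instead, and which description holds was not tested. The study calls the WT mice littermates of the *Bin1* flox/flox mice without saying which shared a litter, so litter was in no fit and p-values measure the spread between these mice.

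*Bin1*, the targeted gene, ran from 230.3 to 289.5 FPKM over the male WT and from 244.4 to 270.9 FPKM over the female WT libraries. Homo libraries held 39.9 to 55.6 FPKM in males and 39.5 to 43.3 FPKM in females, and most Het libraries lay in between, at up to 156.7 and 164.3 FPKM. The libraries labelled Het-F-0206 and Het-M-0199 lay within the Homo range of their own sex, at 42.7 and 51.8 FPKM, and Het-F-0206 also held a *Cx3cr1* of 13.9 FPKM beside 1048 to 1243 in the other female Het libraries. Homeostatic markers were abundant everywhere, with *P2ry12* between 3509 and 5359 FPKM, whereas the B cell factor *Pax5* was at 0 in all libraries and the endothelial *Cldn5* averaged 0.0156 FPKM. Other markers of those lists were detected, with *Cd79b* at 30.3 FPKM and *Pecam1* at 11.3 FPKM on average. Choroid plexus markers summed to 280 FPKM in WT-M-0177 and to 129 in WT-F-0192, but to at most 27.6 in any Cre-positive library. Mouse numbers fell into an early range of 3 male Homo, 2 male Het and 1 female WT mice and a late range of all others, so that no male WT was early. Relative depth, read from the smallest steps of low genes, ran from 0.669 to 1.41 of the median library.

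The 34 genes spanned a 3603-fold range in WT microglia, from *Inpp5d* at 269 FPKM to *Fermt2* at 0.0746 FPKM (means of 9 libraries). Their median level was 21.8 FPKM, beside 4.83 for all 16897 genes tested. Of the 34, 25 lay above the median of all genes, and 13 were among the top 10% (above 49.1 FPKM). There were 6 genes above 100 FPKM, 15 from 10 to 100, 7 from 1 to 10 and 6 below 1. Of the 33 pairs of neighbours in this order, 27 had overlapping ranges, so the order is one of tiers rather than of single ranks.

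**Figure D1:**
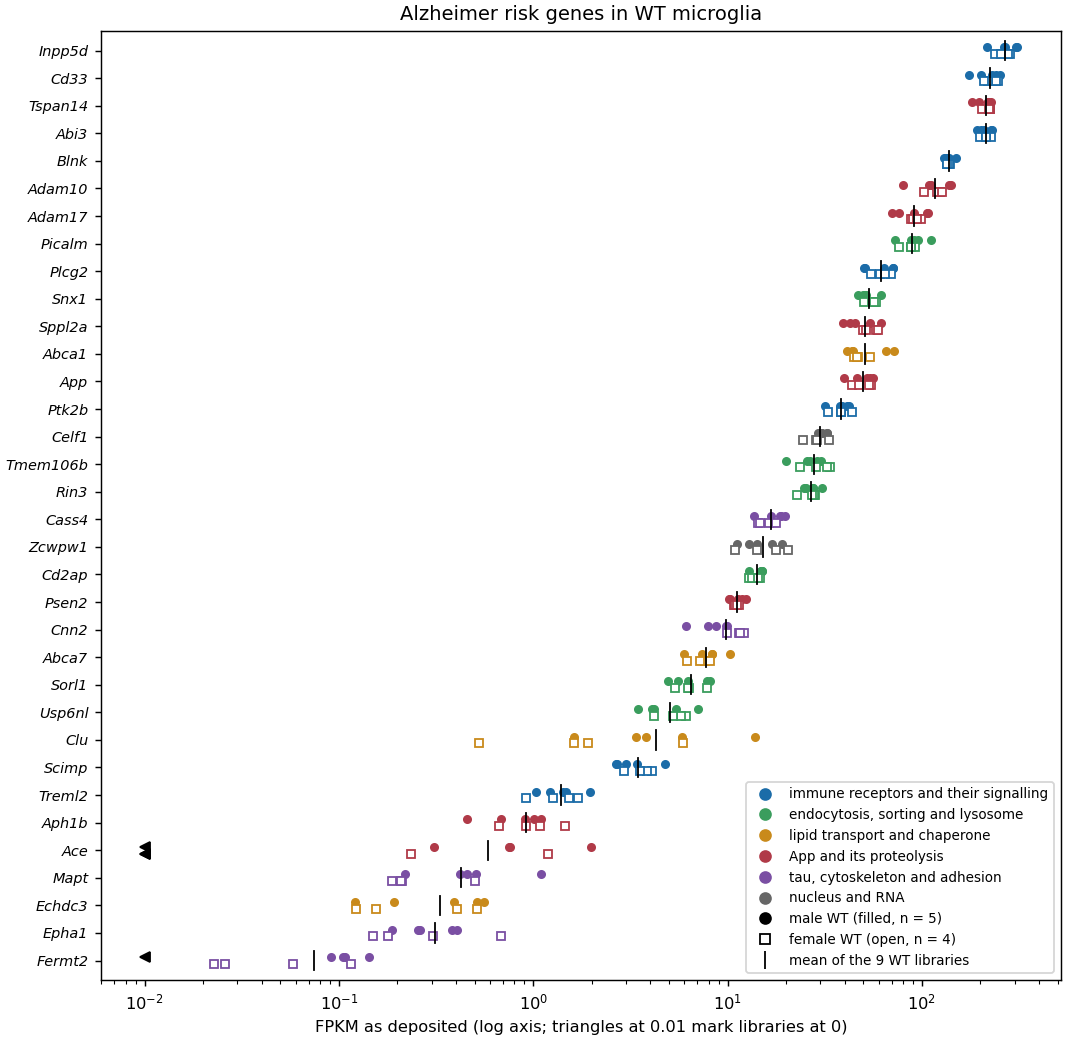
FPKM of each of the 34 genes in the 9 WT libraries on a log axis, sorted by the mean (black bar), with male libraries as filled circles and female libraries as open squares, coloured by role. *Inpp5d*, *Cd33*, *Tspan14* and *Abi3* sat near 200 FPKM or above, while *Ace* and *Fermt2* had libraries at 0 (triangles).

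Genes of immune receptors and their signalling were the most abundant group, with a median of 99.5 FPKM over 8 genes. *Inpp5d*, encoding the inositol phosphatase SHIP1 that dampens immunoreceptor signals, ran from 217 to 308 FPKM over the WT libraries. *Cd33*, a sialic acid binding receptor, averaged 223 ± 25.3 FPKM and *Abi3*, a subunit of an actin-regulating complex, 213 ± 13.6 FPKM (SD, n = 9). The adaptor *Blnk*, which couples the kinase SYK to phospholipase C, was the steadiest of all 34, at 137 ± 5.87 FPKM (SD, n = 9), and its range did not meet that of *Abi3*. *Plcg2*, the phospholipase downstream of these adaptors, stood at 61.8 ± 8.2 FPKM and *Ptk2b*, a focal adhesion kinase, at 38.3 ± 3.93 FPKM (SD, n = 9). The transmembrane adaptor *Scimp* (3.44 FPKM) and the receptor *Treml2* (1.39 FPKM) were far lower.

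The start regions of *Inpp5d* and *Cd33*, the genes of the highest WT means, are printed here because myeloid cells express both strongly. They run from 250 bases before to 50 after the start given by RefSeq (GRCm38.p6), on chr1:87620062-87620361 (plus strand) and chr7:43533122-43533421 (minus strand). Capitals mark GAGGAA, the core of the site bound by the myeloid factor PU.1, or its reverse complement.
Inpp5d: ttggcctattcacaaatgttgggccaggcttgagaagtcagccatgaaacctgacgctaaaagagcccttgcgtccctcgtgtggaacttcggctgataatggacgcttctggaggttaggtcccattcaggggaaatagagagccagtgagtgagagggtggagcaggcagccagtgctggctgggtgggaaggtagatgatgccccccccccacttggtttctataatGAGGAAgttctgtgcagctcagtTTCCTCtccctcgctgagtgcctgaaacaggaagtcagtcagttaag
Cd33: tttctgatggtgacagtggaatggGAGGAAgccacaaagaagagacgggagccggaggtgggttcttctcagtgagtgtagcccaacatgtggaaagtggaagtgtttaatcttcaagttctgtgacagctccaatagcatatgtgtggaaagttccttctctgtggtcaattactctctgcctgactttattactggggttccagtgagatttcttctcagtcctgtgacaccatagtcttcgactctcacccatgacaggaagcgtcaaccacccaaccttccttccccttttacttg
*Inpp5d* held 2 such matches and *Cd33* 1. Of 28 member genes with a RefSeq start region, 11 held the motif on either strand, whereas 28.3% of all 27025 start regions did. A match of 6 letters is a description of the sequence, not a binding site.

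Among genes of endocytosis and sorting, *Picalm*, a clathrin adaptor, led with 89.1 ± 11.1 FPKM (SD, n = 9). The retromer-associated sorting nexin *Snx1* followed at 53.7 FPKM, then the lysosomal membrane protein *Tmem106b* at 27.7 and *Rin3*, an exchange factor for RAB5 that also binds BIN1, at 26.8 FPKM. *Cd2ap*, an adaptor between membranes and actin, was at 14.2 FPKM, *Sorl1*, a sorting receptor for APP, at 6.5 and *Usp6nl*, a RAB5 GTPase-activating protein, at 5.05 FPKM. Among genes of lipid transport, the cholesterol exporter *Abca1* (50.9 ± 10.7 FPKM, SD, n = 9) was well above its relative *Abca7* (7.72 ± 1.28 FPKM), and their ranges did not meet. *Clu*, which encodes the secreted chaperone clusterin, varied most among the genes above 1 FPKM, from 0.526 to 13.9 FPKM over the 9 WT libraries. *Echdc3*, which belongs to the enoyl-CoA hydratase family, was near the detection limit at 0.33 FPKM.

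*App* itself was expressed at 49.7 ± 5.66 FPKM (SD, n = 9). The sheddases that cut it were higher, with *Adam10* at 117 ± 18.8 and *Adam17* at 91.3 ± 12.5 FPKM (SD, n = 9). *Tspan14*, a tetraspanin that escorts ADAM10 to the cell surface, reached 213 ± 15.5 FPKM. Of the γ-secretase genes on the list, the catalytic subunit *Psen2* stood at 11.2 ± 0.734 FPKM (SD, n = 9) and *Aph1b* at 0.918 FPKM. The intramembrane protease *Sppl2a* was at 51.2 FPKM. *Ace*, the angiotensin-converting enzyme, averaged 0.582 FPKM and was at 0 in 3 of 9 WT libraries.

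Genes tied to tau, the cytoskeleton and adhesion were the least abundant group, with a median of 0.424 FPKM over 5 genes. That median was *Mapt*, the gene of tau, at 0.424 ± 0.288 FPKM (SD, n = 9). The docking protein *Cass4* (16.7 FPKM) and *Cnn2*, an actin-binding calponin (9.76 ± 1.93 FPKM, SD, n = 9), were the members of this group above 1 FPKM. The receptor tyrosine kinase *Epha1* (0.312 FPKM) and the integrin activator *Fermt2* (0.0746 FPKM, at 0 in 1 library) were close to the floor. In the last group, the RNA-binding protein *Celf1* stood at 30 ± 2.65 FPKM and the histone reader *Zcwpw1* at 15.3 ± 3.46 FPKM (SD, n = 9). Library strand was not stated to be used in counting, and some members overlap an expressed gene on the opposite strand on GRCm38, so their reads may be mixed. These include *Abi3* with *Gngt2* (186 FPKM over all libraries), *Epha1* with *Zyx* (45.5 FPKM), *Zcwpw1* with *Pilra* (19.6 FPKM) and *Adam17* with *Iah1* (15.5 FPKM).

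No member differed between female and male WT mice at an adjusted p below 0.05, where 0.0473% of all genes tested did. The 34 genes had a median log2 difference of 0.00, with 18 higher and 16 lower in females, and 1 of 34 had an unadjusted p below 0.05, beside 2.91% of all genes, a share near the background. That gene was *Cnn2*, which was higher in females by 0.43 on the log2 scale (SE 0.17, adjusted p = 1 by limma).

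Only *Cnn2* passed the test in any comparison with WT. It was lower in male Homo mice (1 of 34 members, beside 2.82% of all genes tested), in the mean over the sexes of Homo against WT (1 of 34, beside 0.746%) and in the mean over the sexes of Het against WT (1 of 34, beside 0.675%). No member was called in female Homo (0.071% of all genes), male Het (0.172%) or female Het mice (0.136%). With so few genes called overall in females and in Het mice, a count of 0 among 34 is close to the background. In male Homo mice the count of 1 among 34 is also near the share of all genes. Differences are given on the scale of log2(FPKM + 0.1) after scaling between libraries, which understates the change of the lowest genes, and all adjusted p-values are by limma with Benjamini-Hochberg adjustment over the 16897 genes.

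**Figure D2:**
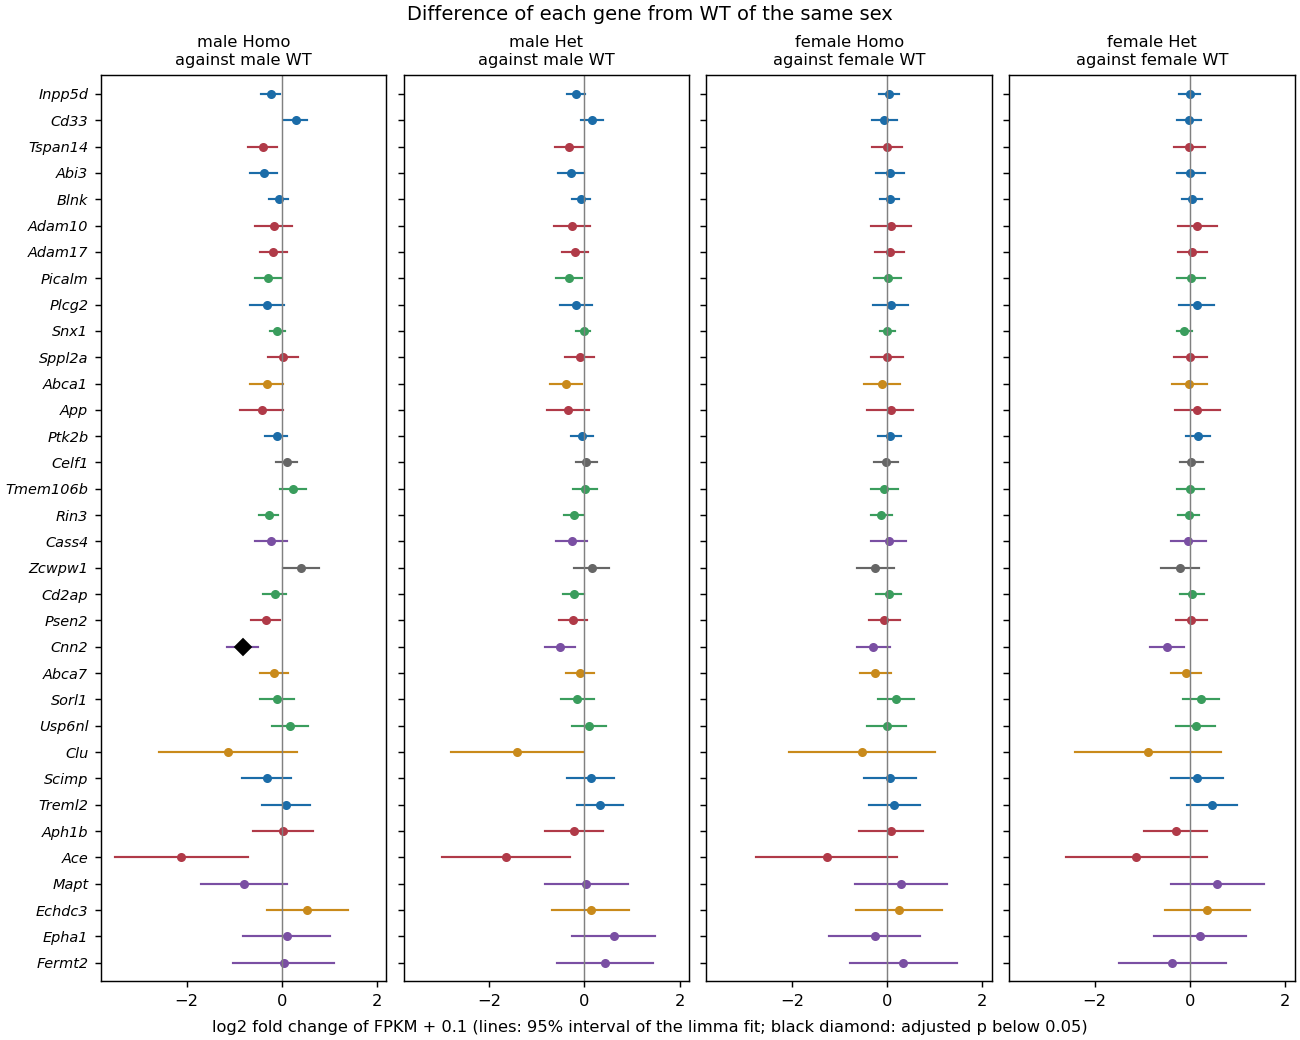
Log2 fold change of each gene against WT of the same sex, in 4 panels with genes in the order of their WT level, lines giving the 95% interval of the limma fit and colours the roles of the plot of WT levels. The black diamond is *Cnn2* in male Homo mice at -0.82, and *Ace* and *Clu* have by far the widest intervals among the genes with negative values.

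In males, more members lay below WT than above it. The counts were 23 lower and 11 higher in Homo mice, with a median log2 fold change of -0.17 beside 0.03 for all genes, and also 23 and 11 in Het mice, with a median of -0.16 beside 0.01. Both comparisons share the same male WT libraries. Marker lists also lay to one side in these comparisons. In male Homo mice 4 of 7 neutrophil markers tested were called lower, beside 2.82% of all genes tested. All 7 lay below WT there (median -4.73), and 6 in male Het mice (median -2.77). Choroid plexus markers lay lower in 6 of 7 in both (medians -2.06 and -2.55), without a call. Of 6 oligodendrocyte markers tested, 1 was called lower in male Homo mice and 5 lay above WT. The lists that follow had no call. Of 10 microglia markers, 7 lay below WT in male Homo (median -0.14) and 8 in male Het mice (median -0.17). All 8 border macrophage markers lay below WT (medians -1.01 and -1.05) and all 8 astrocyte markers above it (medians 0.52 and 0.82). The part of these markers in the members' median was not tested. In females the members were spread around 0, with 18 higher and 16 lower in Homo (median 0.02) and 20 higher and 14 lower in Het mice (median 0.02). An unadjusted p below 0.05 was reached by 10 members in male Homo mice (22.5% of all genes tested), 9 in male Het mice (14.2%), 0 in female Homo mice (3.49%) and 1 in female Het mice (3.95%).

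The medians differed with the choice of mouse numbers in both sexes. Late numbers alone held 2 male Homo, 4 male Het and 5 male WT mice, so the male Homo values there rest on 2 libraries. Among females, they left out 1 library, WT-F-0122, and all female Het and Homo mice were late. The range as a term drew on the early males and on WT-F-0122. With late numbered mice alone, in which 33 members were tested, the median of male Homo against male WT was 0.00, with 17 higher and 16 lower, and once the fit held the number range as a term it was -0.02. For male Het mice the corresponding medians were -0.08 and -0.06. The female Homo mice then had 6 members higher and 27 lower in late numbers alone (median -0.04) and 10 higher and 24 lower with the range as a term (median -0.06). The interaction of sex with Homo, in which 25 of 34 members were lower (median -0.21), went to a median of 0.01 with 18 higher and 15 lower, and to 0.00 with 21 higher and 13 lower. For the interaction with Het the median of -0.22 became -0.07 in both fits. Without scaling, the medians were -0.09 in both male comparisons, beside 0.11 and 0.08 for all genes.

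The intervals bound how large a difference could have been missed. In female Homo mice the 95% interval of 23 of the 34 members lay within 1.5-fold of WT in either direction, in female Het mice that of 21, in male Het mice that of 18 and in male Homo mice that of 17. *Blnk* was among the tightest, with an interval from -0.26 to 0.13 in male Homo and from -0.16 to 0.25 in female Homo mice. *Snx1* was tighter still, from -0.25 to 0.06 in male and from -0.16 to 0.16 in female Homo mice. By contrast, the interval of *Mapt* in male Homo mice ran from -1.70 to 0.12, around values of 0.111 to 0.548 FPKM against 0.218 to 1.1 FPKM in WT.

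Calponin 2 binds actin and restrains the motility and phagocytosis of macrophages, and its gene shares a human AD locus with *ABCA7*. In the mouse (GRCm38) *Cnn2* (ENSMUSG00000004665) lies on chromosome 10 from 79988584 to 79996062 and ends 431 bases before *Abca7*, on the same strand. The FPKM was 8.7, 9.87, 7.96, 6.14 and 9.96 in the male WT libraries and 3.49, 5.27, 6.19, 5.85 and 4.63 in the male Homo libraries. Male Het libraries ran from 5.26 to 7.42 FPKM with a median of 6.04. All Homo males except the highest were below all WT males, and that one (6.19 FPKM) passed only the lowest WT male, WT-M-0202.

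In females, the FPKM was 9.95, 12.2, 11.4 and 11.6 in WT, 8.18, 7.49, 9.47, 7.63 and 7.79 in Het and 10.6, 8.02, 9.26, 8.79 and 9.64 in Homo mice. Every female Het library was below every female WT library, and the Homo libraries overlapped WT in the highest of them. *Cnn2* in female Het mice was the 1 member without overlap among the 4 comparisons with WT, while 2.21% of all genes showed no overlap in that comparison, 2.31% in female Homo, 0.84% in male Het and 3.94% in male Homo mice.

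The log2 fold change was -0.82 (SE 0.16, adjusted p = 0.00756) in male Homo mice, a fold of 0.566. The difference was -0.52 (SE 0.15, adjusted p = 0.165) in male Het, -0.48 (SE 0.17, adjusted p = 0.723) in female Het and -0.29 in female Homo mice. The mean over the sexes was -0.56 (SE 0.12, adjusted p = 0.0168) for Homo and -0.50 (SE 0.11, adjusted p = 0.0291) for Het. Loss of the second copy of *Bin1* went with a difference of -0.30 (SE 0.15) in males, an adjusted p of 0.998, and no member was called between male Homo and male Het (0% of all genes) or between female Homo and female Het mice (0.0118%). The interaction of sex with Homo against WT was -0.53 (SE 0.23, unadjusted p = 0.031 and adjusted p = 0.528 by limma), so a difference between the sexes did not pass the test. No gene was called in either interaction (0% for Homo and 0% for Het), while 4 of 34 members for Homo (9.29% of all genes) and 0 for Het (4.53% of all genes) had an unadjusted p below 0.05.

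**Figure D3:**
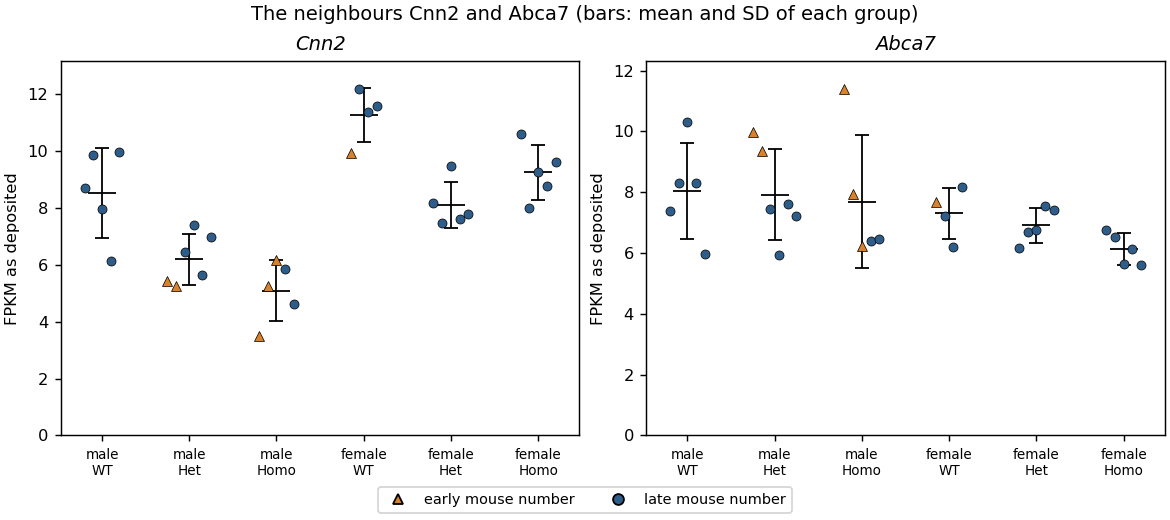
FPKM of *Cnn2* and of its neighbour *Abca7* in each library by group, with triangles for early and circles for late mouse numbers and bars for the mean and SD. The mean of *Cnn2* is lower in the Cre-positive groups of each sex, and *Abca7* overlaps WT in all of them.

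The call in male Homo mice was lost with the number range as a covariate (-0.62, adjusted p = 0.132) and in a fit of the 2 groups alone (-0.83, adjusted p = 0.0741). It was also lost in late numbered mice alone (-0.68, adjusted p = 0.229), which hold 2 male Homo libraries. The mean over the sexes for Homo lost its call in late numbers alone (-0.52, adjusted p = 0.0564) and without WT-F-0192 (-0.53, adjusted p = 0.051). The mean for Het lost it with quantile normalization (-0.53, adjusted p = 0.0661) and without any 1 of 9 libraries, Het-F-0206, Het-F-0220, Het-M-0108, Het-M-0203, WT-F-0192, WT-F-0200, WT-F-0207, WT-M-0176 and WT-M-0177, with adjusted p-values up to 0.0852, and kept it when both Het-F-0206 and Het-M-0199 were left out (-0.52, adjusted p = 0.0467). Neutrophil markers summed to 43.9 to 349 FPKM in male WT and 0 to 80.8 in male Homo libraries, with *S100a8* from 0 to 149 FPKM over all libraries, and choroid plexus markers to 2.73 to 280 and 2.23 to 27.6 FPKM. The part of these markers in the *Cnn2* difference was not tested, and as in all bulk samples fewer cells of a type and less RNA per cell cannot be told apart.

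*Abca7*, which starts just downstream, was not called in any comparison with WT. Its FPKM in the males was 8.04 ± 1.57 (SD, n = 5) for WT, 7.92 ± 1.49 (SD, n = 6) for Het and 7.68 ± 2.18 (SD, n = 5) for Homo. The log2 fold change in male Homo mice was -0.17 (95% interval -0.46 to 0.13, adjusted p = 0.518). In female Homo mice *Abca7* was 6.77, 6.54, 5.64, 6.12 and 5.6 FPKM beside 7.67, 7.22, 6.19 and 8.16 in WT, a difference of -0.25 (95% interval -0.57 to 0.07, adjusted p = 1). Other members that lie near each other are *Clu* and *Ptk2b*, 172 kb apart on chromosome 14, and *Echdc3* and *Usp6nl*, 110 kb apart on chromosome 2.

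The start regions of both neighbours are shown to compare them. That of *Cnn2* is chr10:79988350-79988649 and that of *Abca7* chr10:79996244-79996543, both on the plus strand of GRCm38.p6 (RefSeq). Capitals mark a CArG box, the motif of serum response factor, which drives many genes of the actin cytoskeleton.
Cnn2: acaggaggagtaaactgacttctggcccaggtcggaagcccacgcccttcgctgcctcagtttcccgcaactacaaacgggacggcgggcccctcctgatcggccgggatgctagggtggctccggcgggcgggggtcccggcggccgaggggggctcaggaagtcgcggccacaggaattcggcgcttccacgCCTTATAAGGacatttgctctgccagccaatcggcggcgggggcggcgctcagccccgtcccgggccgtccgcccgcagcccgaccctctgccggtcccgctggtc
Abca7: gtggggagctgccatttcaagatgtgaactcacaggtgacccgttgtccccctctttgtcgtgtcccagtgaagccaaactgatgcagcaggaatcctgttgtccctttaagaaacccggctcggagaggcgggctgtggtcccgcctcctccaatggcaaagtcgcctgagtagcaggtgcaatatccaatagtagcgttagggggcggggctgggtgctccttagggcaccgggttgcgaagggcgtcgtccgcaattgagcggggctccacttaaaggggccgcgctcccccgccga
The *Cnn2* match begins at -56 relative to the start, and the *Abca7* region held none. Matches were found in 1.57% of all 27025 start regions (425) and in 2 of the 28 of the members, *Cnn2* and *Fermt2* (at -204). *Fermt2* was at 0 to 0.684 FPKM in the Cre-positive libraries, too low to compare its response with that of *Cnn2*.

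None of the 8 genes of immune receptors and their signalling was called against WT in either sex. Their median log2 fold change was -0.17 in male Homo mice (2 higher, 6 lower) and 0.05 in female Homo mice (7 higher, 1 lower). In late numbers alone these medians were 0.03 and -0.03. *Abi3* was 226.3, 209.0, 202.3, 191.1 and 230.6 FPKM in male WT and 151.4, 185.4, 149.5, 193.7 and 188.2 FPKM in male Homo mice. The groups overlapped in 1 library, and the difference was -0.38 (SE 0.14, adjusted p = 0.108), which became -0.15 (adjusted p = 0.872) in late numbers alone. In females *Abi3* ran from 199.6 to 227.0 in WT and from 205.9 to 247.7 FPKM in Homo mice. *Cd33* was on the opposite side, at 201.99, 228.8, 241.5, 252.1 and 174.3 FPKM in male WT and 385.3, 289.6, 295.6, 221.1 and 250.4 FPKM in male Homo mice, a difference of 0.30 (SE 0.12, adjusted p = 0.137). Its 3 highest Homo values were those of the early numbered mice, and in late numbers alone the difference was 0.11 (adjusted p = 0.913). *Inpp5d* was 266.0, 306.2, 308.3, 217.2 and 269.1 FPKM in male WT and 282.5, 252.5, 236.7, 220.4 and 239.4 FPKM in male Homo mice, a difference of -0.23 (SE 0.10, adjusted p = 0.171). The groups overlapped widely, and without WT-M-0202, the lowest WT library, *Inpp5d* passed the test at -0.32 (adjusted p = 0.0436), while without scaling it was -0.14 (adjusted p = 0.301). *Treml2* was the least abundant of the group, at 0.918 to 1.95 FPKM over all WT and 1.29 to 2.69 over all Het libraries. Its mean over the sexes for Het was 0.39 (SE 0.17, adjusted p = 0.457), and 0.25 with a pseudocount of 1. *Plcg2*, *Scimp* and *Ptk2b* were at -0.31, -0.32 and -0.11 in male Homo mice, each with an interval that spans 0, and *Plcg2* was -0.04 and *Scimp* 0.15 in late numbers alone.

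The 7 genes of endocytosis, sorting and the lysosome are the closest in function to *Bin1*, and none was called. Their median log2 fold change was -0.09 in male Homo and -0.15 in male Het mice, and -0.00 and 0.02 in the females. Both male medians were 0.04 in late numbers alone. *Rin3* was 27.5, 27.5, 30.6, 25.4 and 24.6 FPKM in male WT and 27.3, 23, 21.5, 22.6 and 24.4 FPKM in male Homo mice. Of the Homo libraries, 4 were below the lowest WT library, and the difference was -0.27 (SE 0.10, adjusted p = 0.109), or -0.17 (adjusted p = 0.702) with the number range as a covariate. In females *Rin3* ran from 22.8 to 28.1 FPKM in WT and from 22.4 to 25.6 FPKM in Homo mice. *Picalm* was 95.5, 87.8, 90.9, 72.8 and 111 FPKM in male WT and ran from 64.3 to 86.5 FPKM (median 76.5) in male Het mice. The difference was -0.32 (SE 0.13, adjusted p = 0.298), with all 6 Het libraries below 4 of the 5 WT libraries, and -0.18 (adjusted p = 0.792) in late numbers alone. *Sorl1*, *Usp6nl*, *Cd2ap*, *Snx1* and *Tmem106b* lay between -0.15 and 0.23 in male Homo mice.

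None of the 8 genes of *App* and its proteolysis was called against WT. All 8 lay below WT in male Het mice (median -0.25) and 6 of 8 in male Homo mice (median -0.26), whereas the female medians were 0.02 in both. In late numbers alone the medians were -0.10 in male Het, 0.05 in male Homo (5 of 8 higher) and -0.05 in female Homo mice. The side of the male Homo group thus turned in a fit that held 2 male Homo mice. *Tspan14* was 218.7, 227.6, 218.0, 181.2 and 196.2 FPKM in male WT and 140.3, 178.9, 143.3, 198.6 and 181.5 FPKM in male Homo mice. The groups overlapped, and the difference was -0.40 (SE 0.15, adjusted p = 0.114). Without Homo-M-0189, its highest Homo library, it was -0.48 (adjusted p = 0.0471), but it was only -0.13 (adjusted p = 0.911) in late numbered mice alone and -0.14 (adjusted p = 0.829) with the range as a covariate. *Psen2* was 11.3, 11.9, 10.3, 10.2 and 12.5 FPKM in male WT and 8.47, 8.29, 9.09, 11.7 and 9.66 FPKM in male Homo mice, with a difference of -0.34 (SE 0.15, adjusted p = 0.183). All but 1 of the Homo libraries lay below the WT range, yet in late numbers alone the difference was -0.07 (adjusted p = 0.97). *App* was -0.42 in male Homo mice (SE 0.22, adjusted p = 0.257), with individual libraries from 27.4 to 59 FPKM, and turned to 0.13 (adjusted p = 0.937) in late numbers alone. *Adam10*, *Adam17*, *Aph1b* and *Sppl2a* lay between -0.18 and 0.03.

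*Ace* and *Clu* had the most negative fitted differences in males without passing the test. *Ace* was 0.31, 1.99, 0.758, 0.746 and 0 FPKM in male WT and 0, 0.187, 0.067, 0 and 0 FPKM in male Homo mice. The female values were 0, 1.19, 0.235 and 0 FPKM in WT, and at most 0.0847 FPKM in any Het or Homo library. The WT libraries were split, with some at 0 as in the Homo mice. The mean over the sexes for Homo was -1.69 (SE 0.50, adjusted p = 0.102), and it moved from -0.51 to -3.03 with the pseudocount and the other alternatives. Without WT-M-0258, the male WT library at 0, it was -2.01 and passed the test (adjusted p = 0.0243).

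*Clu* was 3.38, 13.9, 3.82, 5.82 and 1.62 FPKM in male WT and ran from 0.34 to 7.58 FPKM (median 1.79) in male Het mice. In females it was 1.91, 5.89, 1.62 and 0.526 FPKM in WT and 0.749, 0.576, 1.09, 1.44 and 1.03 FPKM in Het mice. The groups overlapped in both sexes, and the mean over the sexes for Het was -1.15 (SE 0.51, adjusted p = 0.448). Epithelial cells of the choroid plexus express *Ace* and *Clu*, and their markers varied between the libraries. The 8 markers, led by the transthyretin gene *Ttr*, summed to 280 FPKM in WT-M-0177, 136 in WT-M-0202, 129 in WT-F-0192, 78.5 in WT-M-0178 and 71.4 in WT-M-0176. These 5 libraries held the 5 highest sums and, apart from Het-M-0203 (0.798 FPKM, sum 9.89), the 5 highest *Ace* values. The WT libraries with *Ace* at 0 had sums of 2.73, 2.79 and 2.19 FPKM. *Clu* was high also where the sum was low, at 7.58 FPKM in Het-M-0108 (sum 3.97) and 5.92 FPKM in Homo-F-0238 (sum 2.45). Those libraries held the highest sums of neuron markers, 22.4 and 21.6 FPKM, where all others had at most 8.24. Their astrocyte markers summed to 120 and 104 FPKM. Homo-M-0109, with *Clu* at 7.68 FPKM, had an astrocyte sum of 132 and a neuron sum of 6.96 FPKM. In WT-M-0177, the library with the highest *Clu*, the astrocyte sum was 75.8 FPKM. The part of choroid plexus, neuron or astrocyte RNA in these differences was not tested.

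**Figure D4:**
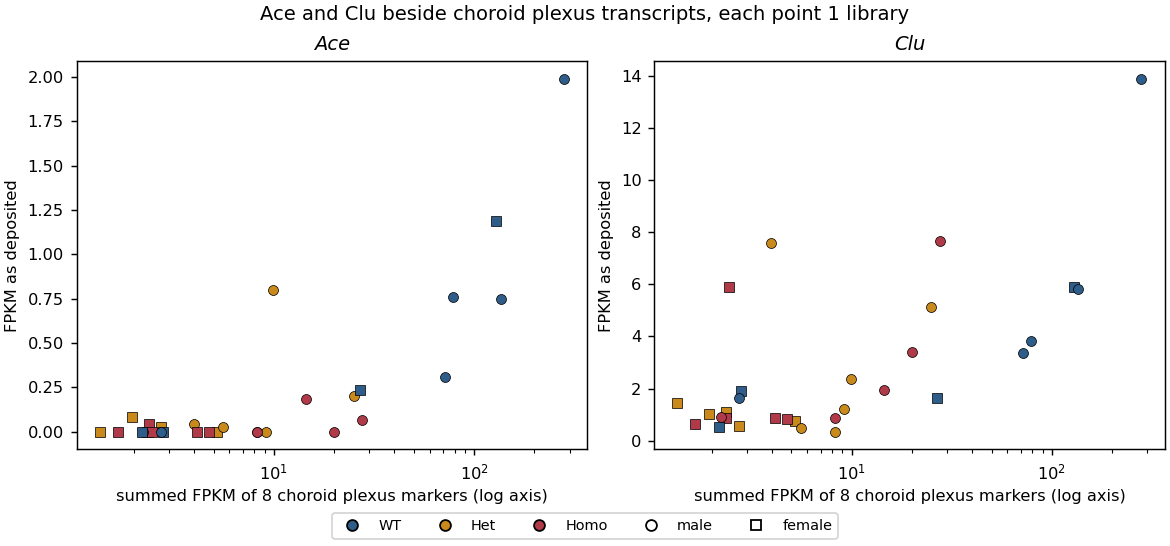
FPKM of *Ace* (left) and *Clu* (right) against the summed FPKM of 8 choroid plexus markers on a log axis, each point 1 of 30 libraries, coloured by genotype, circles male and squares female. The library with the highest sum, 280 FPKM, is a male WT with the highest value of both genes, and several libraries with a low sum have a high *Clu*.

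*Abca1* was 43.8, 65.4, 71.6, 44.2 and 41.1 FPKM in male WT and ran from 33.6 to 50.1 FPKM (median 42.3) in male Het mice. A pair of WT males stood well above the rest, and the difference was -0.39 (SE 0.16, adjusted p = 0.308). In females *Abca1* ran from 44.8 to 53.8 FPKM in WT and from 35.7 to 56.6 FPKM in Het mice. *Echdc3*, *Epha1*, *Mapt* and *Fermt2* were too low for a firm value, with SEs of 0.42 to 0.52 in male Homo mice. *Zcwpw1* was 0.40 in male Homo mice (SE 0.18, adjusted p = 0.189), with 0.25 in late numbers alone, and *Celf1* 0.10 (SE 0.11, adjusted p = 0.625).

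Among Cre-positive males, where both ranges occur, 9 of the 34 genes differed between early and late numbered mice, with genotype kept in the model (2 higher and 7 lower in early mice). In the same comparison 14.6% of all genes tested were called, 8.74% higher and 5.81% lower in early mice. This comparison was added after the data were seen, and the labels give no meaning for the numbers. The early libraries also had a relative depth of 0.669 to 0.92 and scale factors of 1.04 to 1.15. Among the late ones Het-M-0203 had a depth of 0.727 and a factor of 1.1. The other late libraries had depths of 0.928 to 1.41 and factors of 0.952 to 1. The part of depth and scaling factor in these differences was not tested. The median of all genes in this comparison was 0.10, and 0.23 without scaling, so values are best read relative to it. Without scaling, 6 members were called, 4 higher and 2 lower.

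Genes of *App* and its proteolysis made up 4 of the 7 members called lower in early mice. Lower values were not particular to these genes. All 10 microglia markers also lay lower in early mice (median -0.45, 1 called), and partner lists are given further below. *App* was 26.4, 33.7, 27.4, 40.3 and 27.8 FPKM in the 5 early libraries (Het before Homo) and from 32.6 to 59 FPKM in the 6 late ones. The late library Het-M-0203 (32.6 FPKM) lay within the early range, and the others were at 49.1 FPKM or more. The log2 difference was -0.87 (SE 0.20, adjusted p = 0.026). *Adam10* (-0.60), *Sppl2a* (-0.50) and *Tspan14* (-0.50) were lower as well, so that 4 of 8 genes of this group were called lower, and 6 of 8 had a negative difference. *Adam10* was 69.6 to 114 FPKM in the early and 85.5 to 141 FPKM in the late libraries. In the other groups *Plcg2* (-0.54), *Abi3* (-0.46) and *Picalm* (-0.38) were lower, with adjusted p-values up to 0.049 over all 9 genes.

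*Cd33* and *Clu* were higher in early mice. *Cd33* was 348.7, 316.0, 385.3, 289.6 and 295.6 FPKM in the early and 188.3 to 259.4 FPKM in the late libraries, a difference of 0.36 (SE 0.10, adjusted p = 0.0415). It was above every late library in every early one. *Zcwpw1* also showed no overlap, by a narrow margin at 19.3 FPKM, and did not pass the test (0.50, adjusted p = 0.0577). These were the 2 members without overlap, where 5.72% of all genes had none. *Clu* was 5.12, 7.58, 3.41, 1.93 and 7.68 FPKM in the early and 0.34 to 2.37 FPKM in the late libraries, a difference of 2.23 (SE 0.46, adjusted p = 0.0226). *Cnn2* did not pass the test here (-0.35, SE 0.18, adjusted p = 0.189).

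**Figure D5:**
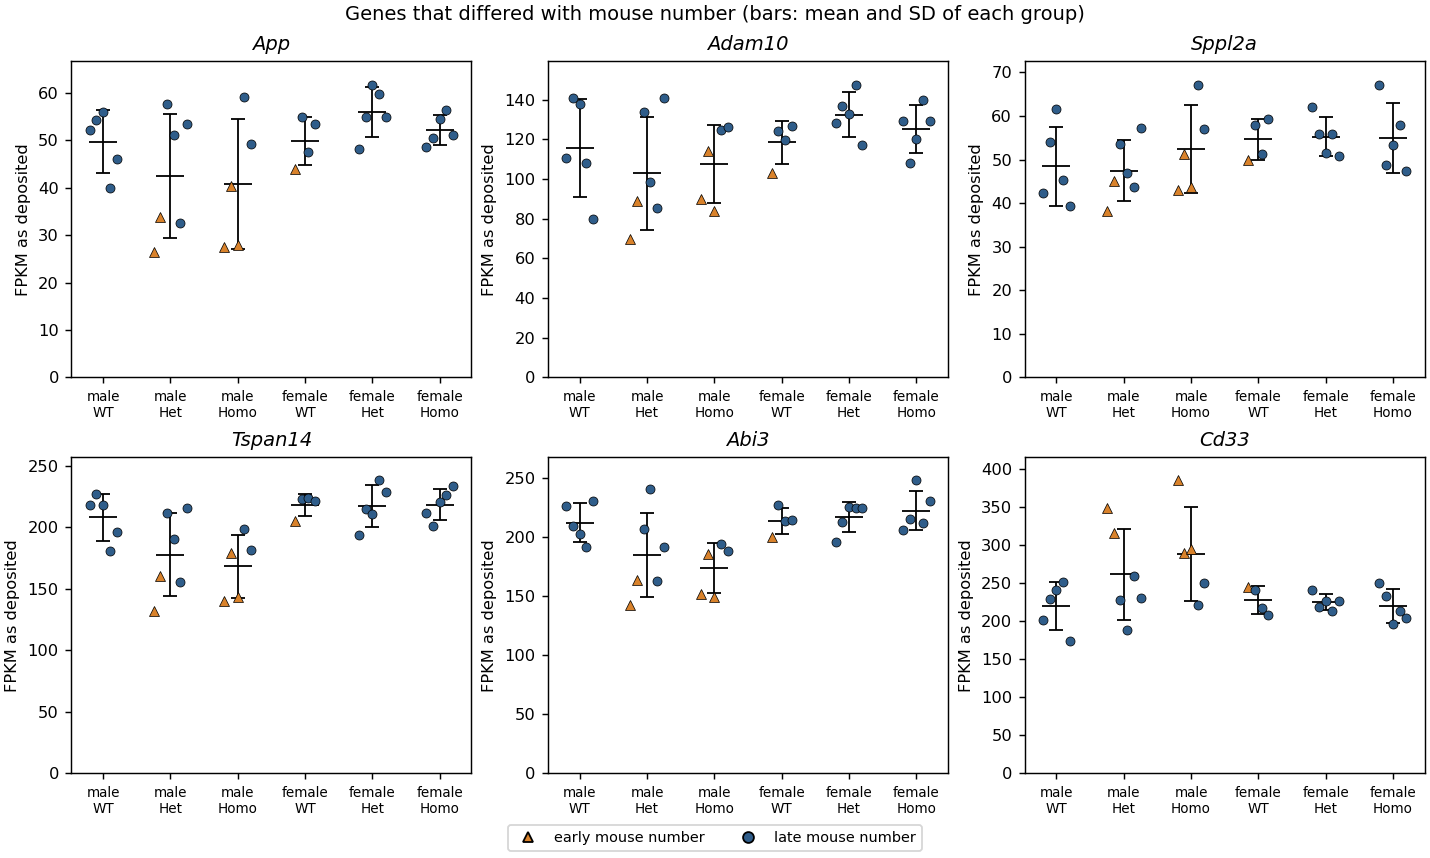
FPKM of 6 of the genes that differed with mouse number, in each library by group, with early numbers as triangles, late numbers as circles and bars for the mean and SD. Early males are mostly near the bottom of their groups for *App* and *Tspan14* and at the top for *Cd33*, and the 1 early female WT library is the lowest female library for *App* and *Adam10*.

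The early female is 1 library, and the genes named for it here are those called between early and late males. WT-F-0122 was not in that comparison but entered the fits with the range as a covariate. It was the lowest of all 14 female libraries for *App* (43.9 FPKM), *Adam10* (102.98 FPKM) and *Plcg2* (54.5 FPKM). Among the 4 female WT libraries it was also the lowest for *Tspan14*, *Abi3*, *Picalm* and *Sppl2a* and the highest for *Cd33* (245.4 FPKM), the sides on which the early males lay. *Clu*, called higher in early males, was not highest there, at 1.91 FPKM beside 5.89 FPKM in WT-F-0192. The relative depth of WT-F-0122 was 1.34, above that of every early male.

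The count of 9 rested on few libraries. It was 0 without Het-M-0100, without Het-M-0108 or without Homo-M-0189, 1 without Het-M-0210, Homo-M-0093, Homo-M-0109 or Homo-M-0190, 2 without Het-M-0197 or Het-M-0199, and 15 without Het-M-0203. The number of all genes called moved with it, from 1 to 4833. No direction of the 9 genes changed under these or the other alternatives. Early males also differed in other markers. Their microglia markers summed to 20102 to 26507 FPKM, beside 23103 to 28458 in late Cre-positive males, border macrophage markers to 153 to 244 beside 110 to 179, and astrocyte markers to 91.3 to 132 beside 66.7 to 104. Choroid plexus markers summed to 3.97 to 27.6 beside 2.23 to 9.89 FPKM, with 7 of 7 tested higher (median 0.53), and neutrophil markers to 0.0923 to 189.5 beside 0 to 13 FPKM, also with 7 of 7 higher (median 1.72). The part of these markers in the differences was not tested, and since no WT male was early, the number range within WT males cannot be compared.

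Genes that act with the members were followed in 4 lists. Of 19 partners of γ-secretase and the sheddases, 17 were tested and none was called in the 4 comparisons with WT. Their median was -0.19 in male Homo mice, 0.04 in female Homo, -0.16 in male Het and 0.03 in female Het mice. The most abundant was *Itm2b*, a membrane protein processed by the same kind of proteases, at 3114 FPKM in WT. None of 19 partners in immunoreceptor (ITAM) signalling was called against WT, with *Tyrobp*, the adaptor that carries the motif, at 1896 FPKM and medians of -0.09 and 0.02 in male and female Homo mice. None of 19 retromer and sorting genes was called against WT, with *Snx5* the highest at 202.5 FPKM and medians of -0.13 and -0.05.

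Of 16 genes of cholesterol efflux and its LXR control, led by the phospholipid remodelling enzyme *Lpcat3* (138 FPKM), 1 was called against WT. *Pltp*, which encodes the phospholipid transfer protein, was 1.98 to 5.96 FPKM in male WT, 0.584 to 1.59 in male Het and 0.532 to 1.3 FPKM in male Homo mice. All male Homo libraries were below all male WT libraries, as for 1.37% of all genes tested. The difference was -1.72 (SE 0.38, adjusted p = 0.017 by limma), where 2.82% of all genes were called. In females *Pltp* ran from 0.752 to 3.71 FPKM in WT and from 0.945 to 2.21 FPKM in Homo mice. The mean over the sexes for Homo was -1.16 (SE 0.28, adjusted p = 0.0399 by limma), where 0.746% of all genes were called. Border macrophage, choroid plexus and neutrophil markers had medians of -1.01, -2.06 and -4.73 in male Homo mice, and astrocyte markers 0.52. The part of these markers in the *Pltp* difference was not tested. The call in males was lost with the number range as a covariate (-1.42, adjusted p = 0.212), in late numbers alone (-1.83, adjusted p = 0.171), without Homo-M-0093 (adjusted p = 0.058) and without WT-M-0177 (adjusted p = 0.0645). The mean was -1.43 to -0.78 over 31 alternatives and lost its call in 15 of them, with adjusted p-values up to 0.13. These were the covariate, no filter, no intensity trend and the omission of Homo-F-0193, Homo-F-0201, Homo-F-0234, Homo-F-0238, Homo-M-0093, Homo-M-0109, Homo-M-0190, WT-F-0192, WT-F-0200, WT-F-0207, WT-M-0177 or WT-M-0178. The list as a whole had a median of -0.19 in male and 0.02 in female Homo mice. Against WT, the medians of these 4 lists were not computed by number range. Between early and late numbered Cre-positive males they were -0.38 (γ-secretase and sheddases), -0.17 (ITAM), -0.32 (retromer and sorting) and -0.22 (LXR). All genes had a median of 0.10 there. In the same order, 2, 4, 11 and 4 of 17, 19, 19 and 16 genes tested were called lower in early mice. Called higher were 1, 2, 2 and 0. Of all genes tested, 5.81% were called lower and 8.74% higher.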

How the data were processed

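RNA of sorted microglia from 30 mice was sequenced by the authors from amplified cDNA, and libraries were grouped by the genotype and sex in their labels. Alignment by the authors used OSA4 and mm10, with RSEM abundance over an Ensembl gene model, and the deposited values are FPKM without a logarithm. The study left libraries of poor quality out of its comparisons. The table holds 6 columns that match no listed sample, and they were not used here. FPKM hold no read totals, so absolute depth is unknown and no counting error is given. Genome positions are from GENCODE M21 and start regions from RefSeq, both on GRCm38.

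Libraries were brought to 1 scale by median-of-ratios factors (0.944 to 1.15), taken from genes whose mean FPKM reached 1. A pseudocount of 0.1 was added, and log2 values of the 16897 genes with a mean of at least 0.1 were compared with limma 3.58.1 (R 4.3.3) in 1 fit of 6 groups with an intensity trend. A gene was called at a two-sided Benjamini-Hochberg adjusted p below 0.05 over all genes. The fit was tested on simulated data. The DESeq2 fit of the paper needs read counts, which were not analysed here.

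The members and lists were chosen with earlier results of these data known. All 34 members are named. Values of single libraries are given for members called against WT in a sex or in the mean over the sexes, and for others in order of their smallest unadjusted p up to 12 genes. Partner genes are named where called against WT, with the most abundant of each list. The comparison of early and late mouse numbers, and the genes it names, followed once the data had been seen, as did the alternatives for *Pltp*. The alternatives tried were a pseudocount of 1 or 0.01, a mean of at least 1 or no filter, no scaling or quantile normalization, array weights, no trend, only the groups compared, the number range as a covariate, late numbers alone, 2 doubted Het libraries left out, and each library left out in turn.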

Additional observations from a re-analysis of the deposited data

Results flagged for a closer look

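In each group of 4 to 6 mice the highest or lowest library was set against the others by Dixon's test for 34 genes, 204 groups of values in all. A library stood apart in 11 of them (5.39%), and chance alone flags about 1 in 20. Het-F-0206, the female Het library with a *Bin1* within the Homo range, was the lowest for *Picalm* (68.8 FPKM, the others 90.5 to 96.7) and for *Cd2ap* (12.3 FPKM, the others 14.7 to 15.1), both of them adaptors in endocytosis. Homo-F-0238 was the highest for *Clu* (5.92 FPKM, the others 0.634 to 0.883) and for *Fermt2* (0.603 FPKM, the others 0 to 0.122). Its neuron markers summed to 21.6 FPKM beside 2.44 to 5.73 in the other female Homo libraries, and its astrocyte markers to 104 beside 85.5 to 91.9 FPKM. WT-F-0122, the early numbered female WT library, was the lowest for *Tspan14* (204.9 FPKM, the others 221.5 to 224.2) and the highest for *Mapt* (0.504 FPKM, the others 0.188 to 0.212).

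WT-M-0202 was the lowest for *Cd2ap* (12.9 FPKM, the others 14.9 to 15.1) and held the highest neutrophil sum (349 FPKM). WT-F-0192 was the lowest for *Snx1* (50.3 FPKM, the others 56.9 to 57.7). *Ace* was highest in Het-M-0203 (0.798 FPKM, the others 0 to 0.201) and in Homo-F-0234 (0.0412 FPKM, the others at 0). Homo-F-0201 was the highest for *Celf1* (33.4 FPKM, the others 26.4 to 28).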

How the results depend on the processing

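No count of members called and no gene value recomputed under every alternative reversed. Values read by number range did turn. The median of the 34 genes in female Homo mice went from 0.02 to -0.04 in late numbers alone and -0.06 with the range as a covariate. Late numbers alone left out WT-F-0122 as the only female. The median of the interaction of sex with Homo went from -0.21 to 0.01 and 0.00, and *App* in male Homo mice from -0.42 to 0.13 and 0.02. The count of members called in male Homo mice was 1 and fell to 0 with the number range as a covariate, in late numbers alone and with only the groups compared, and it was 1 to 2 over the libraries left out in turn, the other gene being *Tspan14*, *Inpp5d* or *Ace*. In the mean over the sexes for Homo it fell to 0 in late numbers alone and was 0 to 2 over the libraries left out, with *Cnn2* lost without WT-F-0192 (-0.53, adjusted p = 0.051 by limma) and *Ace* gained without WT-M-0258. For Het it fell to 0 with quantile normalization (*Cnn2* -0.53, adjusted p = 0.0661 by limma) and was 0 to 1 over the libraries left out. The log2 fold change of *Cnn2* in male Homo mice ranged from -0.94 to -0.62 over 22 alternatives, with adjusted p-values from 0.00165 to 0.229. The count for early against late numbers went from 9 to 4 with quantile normalization, 16 with array weights and 1 without the intensity trend, and was 0 to 15 over the libraries left out. In the other comparisons 0 members were called under every alternative. No paired analysis was possible because mouse numbers are not shared between groups. Depth is known only relative to the median library, so values below 1 FPKM carry an unknown counting error.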
